A study of Mus musculus with 12 samples.

Results

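The comparison sets choroid plexus at postnatal day 14 (P14) against choroid plexus on the day of birth (P0). Every gene symbol with at least 1 TPM in at least 3 of the 6 libraries was kept, which gave 15401 of the 52459 symbols in the table. TPM is a transcript abundance adjusted for transcript length and scaled so that each library has the same sum. The tissue came from mice of the B6 strain with no treatment and no genotype beyond the strain named, and each age had 3 libraries of separate specimens. The dissected tissue holds the epithelium together with its vessels, stroma and immune cells. Sex, ventricle and pooling of animals are not given in the sources used here. The table also holds 3 libraries each of embryos at E12.5 and of mice at 6 months (A6m), used below only to place P14.

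The choroid plexus is a sheet of epithelium on a core of fenestrated vessels, and it secretes the cerebrospinal fluid that fills the brain ventricles. Its epithelial cells are joined by tight junctions, pump sodium, chloride and bicarbonate into the ventricle, carry tufts of cilia, and release proteins such as transthyretin. Between birth and P14 the mouse brain grows fast and the fluid-secreting epithelium matures.

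Because TPM has a fixed sum, each comparison was made on the values as deposited and again after median-of-ratios scaling, which centres the genes. The scaling factors were 1.19, 1.26 and 1.17 at P0 and 0.863, 0.806 and 0.851 at P14. Rose and fell below mean that limma's moderated test on log2(TPM + 1) called the gene in the same direction on both scales, at a Benjamini-Hochberg adjusted p under 0.05. By that rule 1039 genes rose (6.75% of those tested) and 3365 fell (21.8%). On the deposited scale alone 1039 were higher (6.75%) and 9539 lower (61.9%), and after scaling alone 4178 were higher (27.1%) and 3365 lower (21.8%). Either direction was called for 68.7% of genes as deposited and 49.0% after scaling. Higher genes thus made up 9.82% of the calls as deposited and 55.4% after scaling. The median gene differed by -0.43 on the log2 scale as deposited and by 0.03 after scaling, and 815 genes were called in opposite directions on the 2 scales. At least 2-fold differences on both scales were found for 216 genes that rose (1.40%) and 689 that fell (4.47%); on a single scale, 1768 were at least 2-fold lower as deposited (11.5%) and 519 at least 2-fold higher after scaling (3.37%). The libraries of the 2 ages did not overlap in 73.1% of genes as deposited (P14 above in 7.69%, below in 65.4%) and in 59.7% after scaling (32.5% and 27.2%), so separate ages are common in these data. Quantile normalization, a single scale of its own, moved 50 of the 108 counts over the gene lists below by over 1.5 times. The filter lets in genes present at only 1 age: 81 of the genes that rose had at least 1 TPM in the P14 libraries only, and 607 of those that fell in the P0 libraries only. Such genes could be called on both scales in that direction only, so the filter adds to the list counts below. Just inside it lay Gm15962, at 1.03, 0.891 and 1.58 TPM in the P0 libraries and 0.830, 1.00 and 0.415 TPM in the P14 libraries, and just outside lay Klhl41, with 0.994, 0.904 and 1.00 TPM at P0 and 1.40, 1.06 and 0.943 TPM at P14.

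A few abundant transcripts changed their share of TPM between the ages. Rescaling without the 10 most abundant genes moved the median log2 difference from -0.429 to -0.226. Without mitochondrially encoded genes it was -0.274, against 0.0282 after median-of-ratios scaling. What sets the offset between the scales was not tested. Mitochondrially encoded transcripts took 21.2% ± 1.28 of TPM at P0 and 30.7% ± 1.95 at P14 (mean ± SD, n = 3 libraries per age here and throughout). The share of Ttr, the gene of the thyroid hormone carrier transthyretin, was 14.2% ± 0.107 and 16.2% ± 0.894. Enpp2, the gene of autotaxin, a secreted enzyme that makes lysophosphatidic acid, took 0.314% ± 0.0125 and 2.25% ± 0.140. Globin transcripts took 1.02% ± 0.342 and 0.0844% ± 0.00656, and those of cytosolic ribosomal proteins 4.70% ± 0.201 and 2.89% ± 0.213. In none of these shares did the ages overlap, and each gave an exact two-sided permutation p of 0.1, the smallest that 3 against 3 libraries allow. Pearson's r across the tested genes, which are not independent replicates, was 0.971 to 0.973 within P0, 0.973 to 0.980 within P14 and 0.928 to 0.938 between the ages. Xist, the transcript of the inactive X, stayed under 1 TPM in all 6 libraries, and Y-linked Ddx3y was at 117, 115 and 108 TPM in the P0 libraries and 93.2, 80.1 and 90.7 TPM in the P14 libraries.

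**Figure D1:**
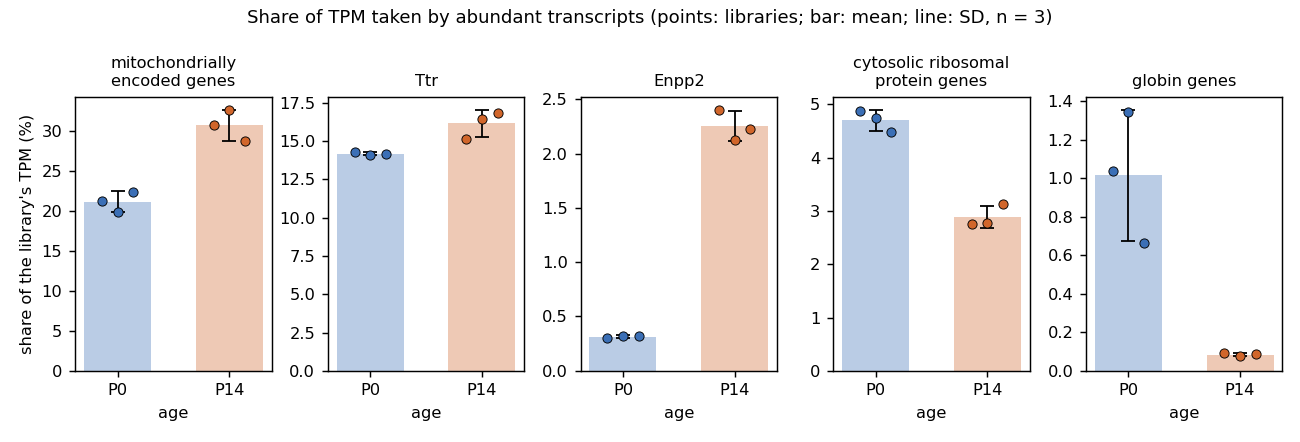
Share of each library's TPM (y axis, %) taken by mitochondrially encoded genes, Ttr, Enpp2, cytosolic ribosomal protein genes and globin genes at P0 and P14 (x axis); points are libraries, bars are means and lines are SD (n = 3). Mitochondrially encoded transcripts and Enpp2 sit higher at P14, at 30.7% and 2.25%, while ribosomal protein and globin transcripts sit lower, at 2.89% and 0.0844%.

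The 15 largest rises are led by the prolactin receptor. Prlr (chr15:10177238-10349180, GRCm38) had 2.14, 1.38 and 2.46 TPM in the P0 libraries and 156, 122 and 127 TPM in the P14 libraries. Its log2 difference was 5.52 as deposited (SE 0.16, adjusted p = 4.31e-06) and 5.93 after scaling (SE 0.16, adjusted p = 4.01e-06), and no other gene in this group had a larger one. Kl (chr5:150952607-150993817), whose product klotho is the co-receptor of the hormone FGF23, had 49.1, 51.4 and 56.0 TPM in the P0 libraries and 534, 453 and 454 TPM in the P14 libraries, a difference of 3.18 as deposited (SE 0.08, adjusted p = 3.73e-06) and 3.69 after scaling (SE 0.08, adjusted p = 3.97e-06). Enpp2 (chr15:54838901-54952892) had 2992, 3207 and 3211 TPM in the P0 libraries and 24038, 21280.5 and 22263 TPM in the P14 libraries, which made it the most abundant of the 15. Its difference was 2.84 as deposited (SE 0.07, adjusted p = 3.11e-06) and 3.36 after scaling (SE 0.08, adjusted p = 3.97e-06). In all 3 genes the P14 libraries lay far above those of P0, but the choice of the largest rises required ages without overlap.

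Secreted proteins and enzymes were also among the 15. F5, which encodes coagulation factor V, rose from 13.5 ± 0.714 to 137 ± 11.6 TPM. Pcsk2, a prohormone convertase, rose from 1.53 ± 0.0912 to 25.5 ± 2.10 TPM. Pla2g5, a secreted phospholipase, rose from 6.35 ± 0.628 to 31.3 ± 1.65 TPM. Ltc4s, the synthase of the inflammatory lipid leukotriene C4, rose from 4.79 ± 0.301 to 41.4 ± 4.82 TPM. These genes differed widely in size of change: the ratios of the means were 4.92 for Pla2g5 and 10.1 for F5, with 8.65 for Ltc4s and 16.7 for Pcsk2. Maob, which degrades amines such as phenylethylamine and dopamine, rose from 4.31 ± 0.732 to 44.3 ± 5.39 TPM. Pcp4, a calmodulin-binding protein, rose from 34.1 ± 1.30 to 234 ± 17.1 TPM. Ppp2r2c, a regulatory subunit of protein phosphatase 2A, rose from 1.62 ± 0.349 to 42.2 ± 1.43 TPM.

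Several of the largest rises are genes better known from other tissues. Nefh, the heavy neurofilament chain of neurons, had 0.566, 0.203 and 0.490 TPM in the P0 libraries and 32.5, 24.6 and 29.2 TPM in the P14 libraries. Nav3, neuron navigator 3, had 2.83, 3.28 and 4.03 TPM in the P0 libraries and 64.3, 53.5 and 45.8 TPM in the P14 libraries. Cox8b (chr7:140898945-140900446), the isoform of cytochrome oxidase subunit 8 known from heart, muscle and brown fat, was listed at 0 in 2 P0 libraries: its values were 0.668, 0 and 0 TPM in the P0 libraries and 17.4, 18.3 and 25.3 TPM in the P14 libraries. These 3 genes were chosen among the largest rises without overlap of the ages, so the choice itself required their ages to be separate. Cox8b's difference was 4.15 as deposited (SE 0.24, adjusted p = 4.37e-05) and 4.42 after scaling (SE 0.22, adjusted p = 3.88e-05). Cox8b and Nefh were under 1 TPM in every P0 library. They met the filter through P14 alone and could be called only as rises. Igkj3 (chr6:70723223-70723260), a short joining segment of the immunoglobulin light chain locus, rose from 20.1 ± 3.13 to 112 ± 27.0 TPM. The segment is shorter than 1 read of 100 bp, so that its length-adjusted TPM is uncertain. Frmpd1os, a transcript antisense to Frmpd1, rose from 8.08 ± 2.91 to 85.0 ± 8.79 TPM; the strand setting of the quantification is not given in the sources used here, so that its reads and those of the overlapping gene cannot be told apart.

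The largest fall was that of Penk (chr4:4133531-4138819), which encodes the opioid precursor proenkephalin: 588, 688 and 703 TPM in the P0 libraries and 7.42, 10.8 and 7.81 TPM in the P14 libraries, a log2 difference of -6.11 as deposited (SE 0.14, adjusted p = 3.11e-06) and -5.61 after scaling (SE 0.16, adjusted p = 5.26e-06). Klk4, a secreted serine protease, followed with 89.2, 95.7 and 97.4 TPM in the P0 libraries and 1.70, 1.54 and 1.91 TPM in the P14 libraries. Gpc3 (chrX:52272426-52613950), a glypican that restrains growth signals at the cell surface, had 444, 504 and 479 TPM in the P0 libraries and 15.8, 14.01 and 16.3 TPM in the P14 libraries. H19, the imprinted non-coding RNA next to Igf2, had 320.3, 319 and 363 TPM in the P0 libraries and 9.46, 13.1 and 13.99 TPM in the P14 libraries. The ages were far apart in each of these genes, but the choice of the largest falls required ages without overlap. The P14 libraries were all near the bottom of the range.

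Transporters and enzymes were also among the 15 largest falls. Slc6a15, a neutral amino acid transporter, fell from 846 ± 33.5 to 78.3 ± 1.85 TPM. Slc16a10, which carries aromatic amino acids, fell from 46.9 ± 6.82 to 1.92 ± 0.268 TPM. Ugt1a6b, a glucuronosyltransferase that shares exons with its neighbours in the locus, fell from 112 ± 1.82 to 7.70 ± 1.03 TPM. Col9a2, a chain of type IX collagen, fell from 70.8 ± 7.04 to 3.55 ± 0.207 TPM. Cdc20b, whose locus belongs to the programme that multiplies centrioles in ciliated cells, fell from 32.8 ± 5.37 to 1.55 ± 0.836 TPM. Stfa1, a cysteine protease inhibitor of a multigene family, fell from 20.8 ± 0.802 to 0.352 ± 0.385 TPM. Also among them were the adult globins Hba-a1, Hba-a2, Hbb-bt and Hbb-bs, pairs of near-identical copies whose reads the quantification may have split; Hbb-bs, for example, had 4358, 5737 and 3049.6 TPM in the P0 libraries and 413, 385 and 419.6 TPM in the P14 libraries.

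**Figure D2:**
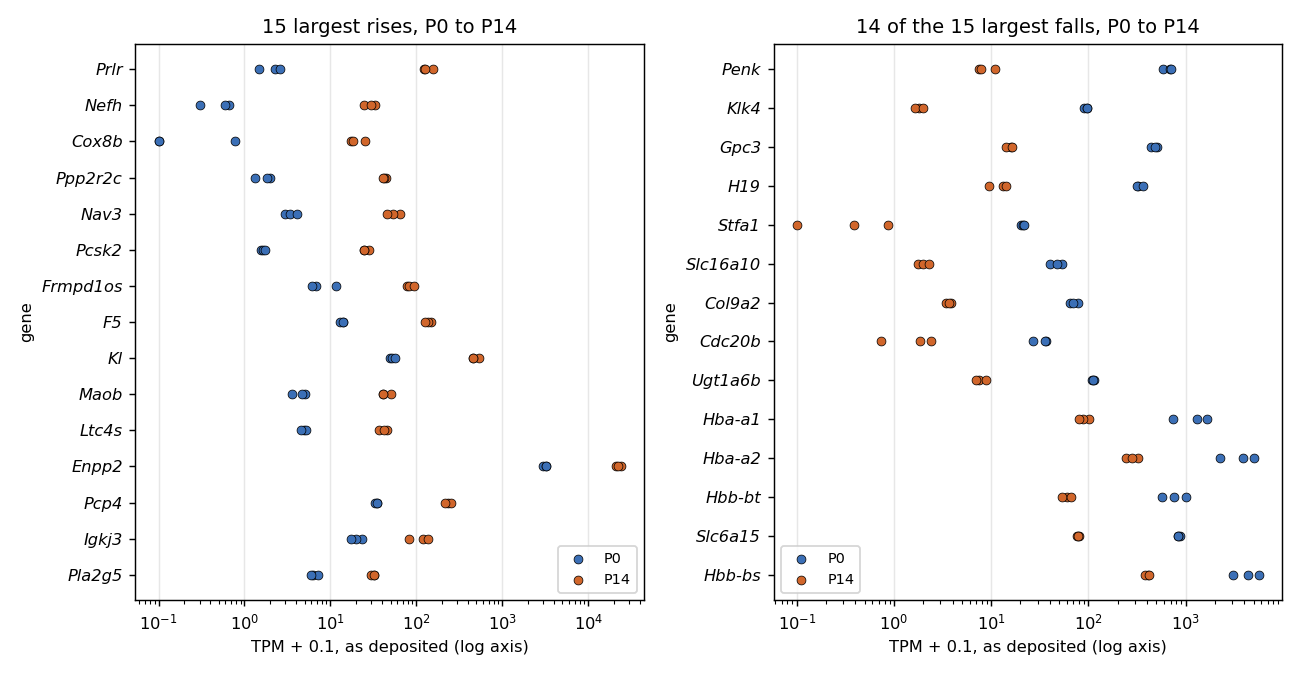
TPM plus 0.1 (x axis, log scale) of the 15 largest rises (left) and 14 of the 15 largest falls (right) from P0 (blue) to P14 (orange), 1 point per library and 1 row per gene. The libraries of the 2 ages do not overlap in any row, which the choice of these genes required. Prlr and Penk head the panels.

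Marker genes of the epithelium rose more often than they fell. Of the markers listed for it, 18 of 36 tested members rose and 3 fell, with a median log2 difference of 0.17 as deposited and 0.69 after scaling. These and all later list counts stand beside 6.75% of all tested genes that rose and 21.8% that fell. A list near those shares tells nothing particular about its members. In the lists of ion and water transport, organic solutes, receptors and insulin-like growth factors, 1 fall each was under 1 TPM in every P14 library. The same held for the lists of DNA methylation, cadherins, Notch and immediate early genes. Such falls met the filter through P0 alone. Most members named from lists were chosen among those called, which made ages without overlap likely. Besides Prlr, F5, Kl and Enpp2, the thyroid hormone carrier Slco1c1 rose from 87.6 ± 4.20 to 263 ± 22.1 TPM. Ppp1r1b, the phosphatase inhibitor DARPP-32, rose from 159 ± 6.10 to 420.5 ± 9.42 TPM, and Clu, the secreted chaperone clusterin, from 1093 ± 43.2 to 1725 ± 68.9 TPM. Ttr itself was not called on either scale: it had 143164, 141192 and 141475 TPM in the P0 libraries and 151576, 164598 and 168699 TPM in the P14 libraries, a difference of 0.19 as deposited (SE 0.10, adjusted p = 0.135) and 0.71 after scaling (SE 0.26, adjusted p = 0.0609). It stayed the most abundant transcript of every library, and all 3 P14 values lay above the P0 values. Ttr was called higher under several alternatives, for example without the trend in the variance (adjusted p = 0.0488 as deposited and 0.0011 after scaling) and with a mean of at least 5 TPM required (adjusted p = 0.0149 and 0.0014). Folr1, the folate receptor of the epithelium, had 1376, 1429.7 and 1438 TPM in the P0 libraries and 1319, 1336 and 1416 TPM in the P14 libraries; its ages overlapped as deposited, and its difference was -0.06 as deposited (SE 0.05, adjusted p = 0.284) and 0.46 after scaling (SE 0.06, adjusted p = 0.0011). Otx2, the homeobox factor that specifies the tissue, had 556, 574 and 550.1 TPM in the P0 libraries and 395, 383 and 382 TPM in the P14 libraries, lower as deposited (log2 -0.53, adjusted p = 8.67e-05) and at -0.01 after scaling (adjusted p = 0.826). The members that fell were Col9a3 (559 to 239.7 TPM), a type IX collagen chain, the keratin Krt18 (289 to 129 TPM) and Lmx1a (54.6 to 27.6 TPM), a factor of the embryonic roof plate.

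Fluid secretion rests on the sodium pump, bicarbonate carriers and water channels, and its genes were called in both directions. In that list 6 of 37 tested members rose and 8 fell, the falls at the 21.8% of all tested genes, with median log2 differences of -0.24 and 0.27 on the deposited and scaled values. Quantile normalization called 16 members higher, against 3553 of all 15401 tested genes. Atp1b1, the beta subunit of the sodium pump, rose from 358 ± 10.98 to 571 ± 43.9 TPM. The sodium bicarbonate carrier Slc4a10 rose from 605 ± 30.2 to 744 ± 46.8 TPM, the potassium channel Kcnj13 from 384 ± 31.1 to 697 ± 6.23 TPM and the calcium channel Trpv4 from 44.4 ± 2.99 to 83.2 ± 3.19 TPM. Aqp1, the water channel of the apical membrane, had 655, 661 and 645 TPM in the P0 libraries and 289.8, 282 and 316 TPM in the P14 libraries. It fell, with a difference of -1.14 as deposited (SE 0.05, adjusted p = 2.25e-05) and -0.62 after scaling (SE 0.05, adjusted p = 1.92e-04), and the ages did not overlap. Slc4a4, another bicarbonate carrier, fell from 11.4 ± 2.71 to 3.51 ± 1.06 TPM, and Clcn2, a chloride channel, from 9.78 ± 1.03 to 4.29 ± 0.290 TPM. The chloride cotransporter Slc12a2 was not called on both scales: it had 281, 279 and 272 TPM in the P0 libraries and 288, 225 and 222 TPM in the P14 libraries.

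Carriers of organic solutes likewise moved both ways, as 12 of 46 tested members rose and 17 fell (median -0.31 and 0.20). Several amino acid carriers fell. Besides Slc6a15, the large neutral amino acid carrier Slc7a5 had 25.8, 20.8 and 18.9 TPM in the P0 libraries and 3.51, 4.00 and 3.07 TPM in the P14 libraries, and its heavy chain partner Slc3a2 fell from 219.8 ± 16.6 to 117 ± 2.15 TPM. Slc1a4, a carrier of alanine, serine and cysteine, fell from 7.24 ± 0.983 to 1.32 ± 0.0974 TPM. The glutamine carrier Slc38a3 went the other way, from 142 ± 4.81 to 218 ± 10.3 TPM. The glucose transporter Slc2a1 fell from 64.7 ± 4.54 to 32.5 ± 2.13 TPM. Slc6a13, a GABA and taurine carrier also expressed in meninges, had 21.7, 16.5 and 24.2 TPM in the P0 libraries and 1.17, 2.10 and 4.18 TPM in the P14 libraries. Zinc carrier Slc39a4 rose from 5.68 ± 0.631 to 15.03 ± 1.13 TPM. Efflux pumps differed too: Abcc4 rose from 12.7 ± 0.706 to 17.9 ± 1.92 TPM and Abcg2 fell from 28.9 ± 4.42 to 9.18 ± 0.823 TPM.

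Receptors for hormones and transmitters moved both ways. 6 of 36 tested members of that list rose and 14 fell (median -0.40 and 0.05). Those that rose were Prlr, Mc3r (0.288 to 2.25 TPM), a melanocortin receptor, Crhr2 (10.5 to 27.2 TPM), which binds urocortins, the thyroid hormone receptor Thrb (8.49 to 12.9 TPM), the serotonin receptor Htr2c (336 to 431 TPM) and Il11ra1 (42.7 to 54.4 TPM). Mc3r was under 1 TPM in every P0 library, met the filter through P14 alone and could be called only as a rise. Among those that fell, the stem cell factor receptor Kit had 50.5, 47.6 and 45.1 TPM in the P0 libraries and 10.2, 11.7 and 12.2 TPM in the P14 libraries. Igf1r, the receptor of insulin-like growth factors, fell from 37.8 ± 2.40 to 15.05 ± 1.64 TPM, and the leukaemia inhibitory factor receptor Lifr from 10.8 ± 1.35 to 3.23 ± 0.580 TPM. Growth factor receptor Fgfr2 fell from 271 ± 4.27 to 139.8 ± 5.75 TPM and the endothelin receptor Ednrb from 207 ± 10.1 to 87.6 ± 1.10 TPM.

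Retinoic acid is made from retinol by a dehydrogenase and a retinaldehyde oxidase, and it is removed by CYP26 enzymes. In the list of retinoid and thyroid hormone handling 5 of 18 tested members rose and 6 fell. Of those 6, 2 were under 1 TPM in every P14 library. Rdh10, which starts the synthesis, had 79.6, 89.7 and 85.0 TPM in the P0 libraries and 20.5, 19.4 and 20.2 TPM in the P14 libraries. Aldh1a2, which completes it, fell from 20.3 ± 8.19 to 3.00 ± 1.87 TPM. Cyp26b1, which degrades the product, had 6.69, 7.496 and 6.81 TPM in the P0 libraries and 1.72, 1.73 and 1.27 TPM in the P14 libraries. Retinol carrier Rbp4 fell from 12.3 ± 2.05 to 3.09 ± 1.30 TPM. The oxidase Aldh1a1 rose at a low level, from 1.19 ± 0.227 to 3.04 ± 1.02 TPM. Klf9, a known target of thyroid hormone, rose from 15.3 ± 2.14 to 26.5 ± 1.61 TPM.

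Genes of the respiratory chain were higher at P14 relative to the median gene. Of the nuclear genes of oxidative phosphorylation, 25 of 76 tested members rose and 0 fell. After scaling alone 75 of 76 were higher, against 27.1% of all tested genes. Their median was 0.09 as deposited and 0.61 after scaling, against -0.43 and 0.03 over all tested genes. Cycs, cytochrome c, had 34.97, 29.6 and 32.8 TPM in the P0 libraries and 62.5, 57.6 and 60.7 TPM in the P14 libraries. Atp5g1, a subunit of the membrane ring of ATP synthase, had 306, 294 and 318 TPM in the P0 libraries and 435, 424 and 488 TPM in the P14 libraries. Ndufa1 of complex I had 486, 441 and 443 TPM in the P0 libraries and 648, 639 and 707 TPM in the P14 libraries. These ages did not overlap, in genes chosen among those called, and each gene gained less than 2-fold as deposited. Of the proteins encoded in mitochondrial DNA, 11 of 13 tested members rose and 0 fell (median 0.52 and 1.04). mt-Nd2, a subunit of complex I, rose from 12272 ± 721 to 22606 ± 1646 TPM, and mt-Atp6, a subunit of ATP synthase, from 27077 ± 1620.5 to 42082 ± 3546 TPM. The call of mt-Atp6 was lost without the filter on low values (adjusted p = 0.156 as deposited and 0.2085 after scaling), and its difference was 0 under quantile normalization. The others were mt-Nd3 (3125 ± 845 and 3237 ± 364 TPM) and mt-Nd6 (554 ± 69.5 and 342 ± 44.7 TPM), the latter read from the opposite strand. Quantile normalization, which forces the libraries to 1 distribution and so compresses the most abundant genes, left 3 of the mitochondrially encoded members higher and turned 2 lower, while it called 70 of the nuclear members higher. On that scale 3553 of all 15401 tested genes were higher and 3491 lower.

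Cytochrome oxidase has subunits with alternative tissue isoforms. Cox8b, the contractile tissue form described above, reached 20.3 ± 4.33 TPM at P14, while its ubiquitous counterpart Cox8a stayed far above it, at 585, 587 and 604 TPM in the P0 libraries and 582, 631 and 675 TPM in the P14 libraries. Cox8a differed by 0.09 as deposited (SE 0.06, adjusted p = 0.237) and 0.61 after scaling (SE 0.08, adjusted p = 9.82e-04). Cox7a1, the muscle form of subunit 7a, rose and had 18.3, 11.95 and 14.8 TPM in the P0 libraries and 28.5, 22.5 and 28.6 TPM in the P14 libraries. Cox6a1, the liver form of subunit 6a, rose from 305 ± 9.95 to 411 ± 26.4 TPM. The hypoxia-linked isoform Cox4i2 fell from 4.74 ± 0.911 to 2.05 ± 0.445 TPM, a call that was lost without P0-1, P0-2, P14-1 or P14-2 (adjusted p = 0.0761 to 0.091). Of mitochondrial ribosomal proteins 4 of 48 tested members rose (8.33%, near the 6.75% of all tested genes) and 0 fell. Those that rose were Mrps25, Mrps21, Mrpl12 and Mrps12. After scaling alone 33 of the 48 were higher, against 27.1% of all tested genes. Mrps25 rose from 12.8 ± 1.09 to 20.4 ± 1.81 TPM and Mrps21 from 186 ± 10.5 to 253 ± 13.1 TPM. The call of Mrpl12 was lost without P0-1, P0-2, P0-3, P14-1 or P14-3 (adjusted p = 0.0626 to 0.138), and that of Mrps12 without P0-1, P0-2, P0-3, P14-1, P14-2 or P14-3 (adjusted p = 0.0563 to 0.146). Among 18 regulators of mitochondrial biogenesis only Esrra, an estrogen-related receptor, rose (14.8 ± 2.93 to 20.8 ± 2.49 TPM), and its call was lost without P0-3, P14-1 or P14-3 (adjusted p = 0.0565 to 0.0894). Ppargc1a, the coactivator PGC-1 alpha, had 26.4, 24.7 and 24.9 TPM in the P0 libraries and 23.3, 24.3 and 23.1 TPM in the P14 libraries.

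In the citric acid cycle and fatty acid oxidation 9 of 32 tested members rose and 1 fell (median -0.05 and 0.46). Idh3a, a subunit of isocitrate dehydrogenase, had 122, 107 and 109 TPM in the P0 libraries and 199.6, 186 and 210.4 TPM in the P14 libraries. Malate dehydrogenase Mdh1 rose from 634 ± 15.4 to 867 ± 14.6 TPM. The member that fell was Acadm, an acyl-CoA dehydrogenase (265 ± 11.4 to 155 ± 12.6 TPM), and its call was lost without P0-1, P0-3, P14-1 or P14-2 (adjusted p = 0.0884 to 0.0899). In glycolysis 3 of 18 tested members rose and 1 fell: the phosphofructokinases Pfkp (81.2 to 139 TPM) and Pfkm (36.3 to 48.0 TPM) and the lactate dehydrogenase subunit Ldhb (538 to 717 TPM) rose, and Slc2a1 fell.

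Transcripts of cytosolic ribosomal proteins were lower at P14. As deposited 76 of 79 were lower, against 61.9% of all tested genes. After scaling 32 were lower and 4 higher, against 21.8% and 27.1% of all. By both scales 1 of 79 tested members rose and 32 fell (median -0.70 and -0.18). Rps20 had 285, 272 and 272 TPM in the P0 libraries and 137, 112 and 162 TPM in the P14 libraries. Rps23 had 327, 372 and 342 TPM in the P0 libraries and 170.4, 169 and 192 TPM in the P14 libraries. In these the 2 ages did not overlap, as in the 65.4% of all tested genes with P14 below P0 as deposited. The count of falls varied from 19 to 34 when 1 library was left out: it was 19 without P0-1, 21 without P0-3 and 20 without P14-1. The member that rose was Rpl5 (89.5 ± 6.56 to 105 ± 9.55 TPM), and its call was lost without P0-1, P0-3, P14-1 or P14-3 (adjusted p = 0.104 to 0.136). Ribosomal protein genes have many near-identical processed copies, among which the quantification can split reads.

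The folding machinery of the endoplasmic reticulum (ER), which prepares secreted and membrane proteins, had more rises than falls: 15 of 42 tested members rose and 2 fell (median -0.03 and 0.48). Hspa5, the chaperone BiP, had 444, 407 and 428 TPM in the P0 libraries and 749, 675 and 744 TPM in the P14 libraries. Calr, the lectin chaperone calreticulin, had 748, 672 and 732 TPM in the P0 libraries and 1331, 1222 and 1168 TPM in the P14 libraries. Sdf2l1, a BiP partner, had 19.9, 17.1 and 18.8 TPM in the P0 libraries and 33.5, 34.1 and 38.3 TPM in the P14 libraries. The co-chaperone Dnajc3 rose from 76.4 ± 1.57 to 107 ± 7.27 TPM, the chaperone Hsp90b1 from 653 ± 42.2 to 881 ± 54.5 TPM, the secreted factor Manf from 205 ± 8.43 to 316 ± 8.88 TPM and Xbp1, a transcription factor of the unfolded protein response, from 44.0 ± 4.57 to 57.2 ± 1.64 TPM. All of these ages were separate, in genes chosen among those called, with rises of less than 2-fold as deposited. The members that fell, Ssr2 (117 ± 5.77 to 48.2 ± 2.30 TPM) and Ssr3 (151 ± 3.88 to 73.6 ± 2.20 TPM), are subunits of the translocon-associated complex.

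Many genes of this machinery share the ER stress response element, which is the box CCAAT followed by 9 bases and then CCACG. Matches were sought on both strands in the 250 bases before each RefSeq start, in the 10637 tested genes for which RefSeq promoters (GRCm38.p6) were at hand. The element was found in 16 of them (0.150%), and 7 of those 16 were among the 33 members of the ER list with a promoter (21.2%): Hspa5, Hsp90b1, Calr, Canx, Pdia6, Dnajc3 and Creld2. Of these 7, 5 rose and none fell (median log2 0.43 and 0.95), while of the 26 members without it 7 rose and 1 fell (median -0.16 and 0.36). Pdia6 and Creld2 were higher after scaling alone, and the call of Canx was lost without P0-1, P0-2, P0-3, P14-1 or P14-3 (adjusted p = 0.071 to 0.123). CCAAT by itself, which the element contains, stood in 69.7% of the ER list's promoters and in 40.2% of all. The upstream stretches of 3 of these genes are shown because they carry the element; capitals mark every CCAAT box and the CCACG part of an element, or their reverse complements.
Hsp90b1 (chr10:86705510-86705659, minus strand): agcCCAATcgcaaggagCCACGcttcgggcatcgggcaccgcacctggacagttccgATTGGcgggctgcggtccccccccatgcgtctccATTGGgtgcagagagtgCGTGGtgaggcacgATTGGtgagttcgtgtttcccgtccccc
Canx (chr11:50325674-50325823, minus strand): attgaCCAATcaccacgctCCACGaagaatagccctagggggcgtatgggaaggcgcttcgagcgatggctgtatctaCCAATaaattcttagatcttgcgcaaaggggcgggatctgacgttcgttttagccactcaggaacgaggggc
Dnajc3 (chr14:118937782-118937931, plus strand): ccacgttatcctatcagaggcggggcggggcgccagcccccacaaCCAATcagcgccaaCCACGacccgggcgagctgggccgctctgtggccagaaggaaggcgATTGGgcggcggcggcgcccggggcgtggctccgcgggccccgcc
Hsp90b1 holds the element at 212 to 194 bases before the RefSeq start and again, in reverse, at 107 to 89. In Canx it lies at 145 to 127 and in Dnajc3 at 105 to 87. A match describes the letters only, and no test was made of it.

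**Figure D3:**
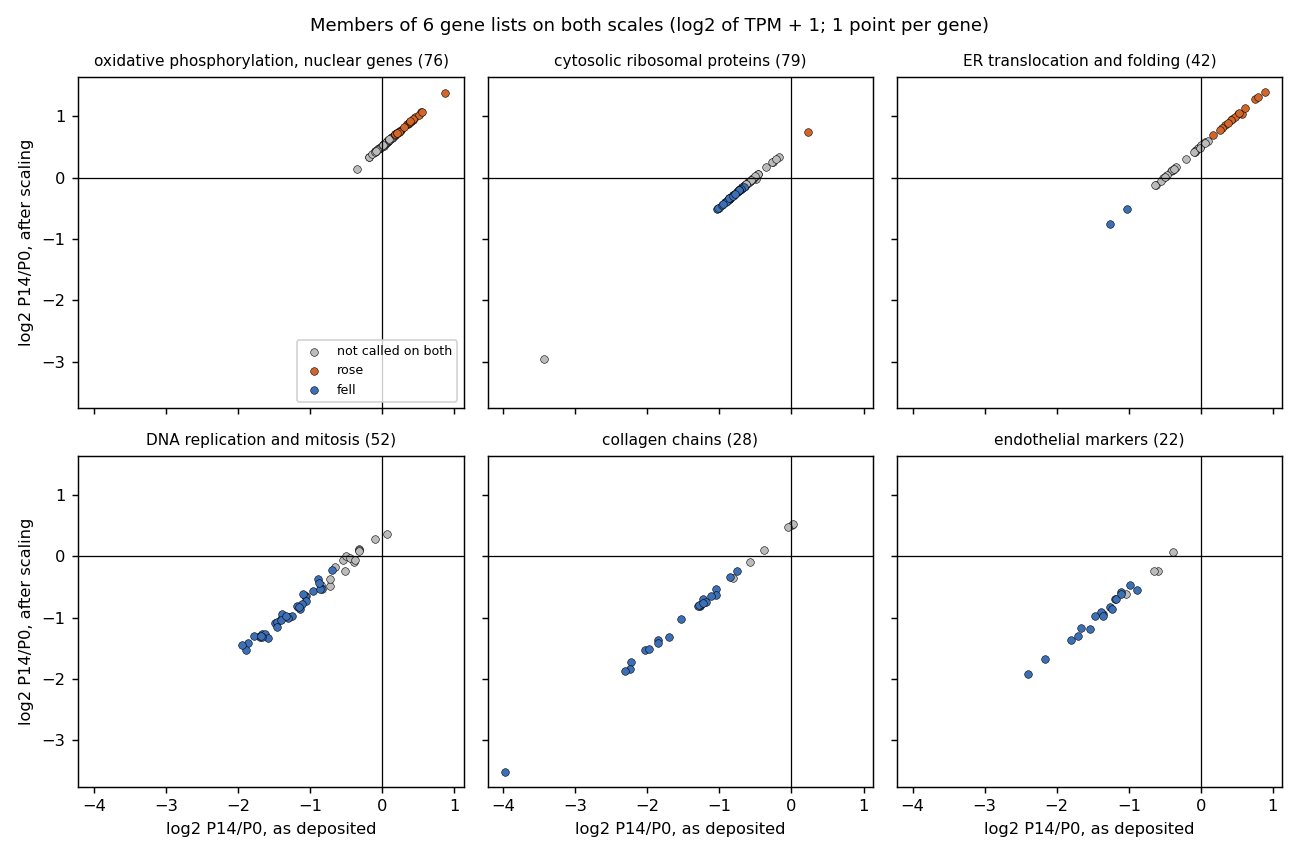
log2 difference between P14 and P0 as deposited (x axis) and after scaling (y axis) for the tested members of 6 gene lists, 1 point per gene; orange points rose, blue points fell and grey points were not called in 1 direction on both scales. Oxidative phosphorylation genes lie above 0 after scaling, replication, collagen and endothelial genes mostly below 0 on both axes, and the outlying grey ribosomal point is Rps27, at -3.43 and -2.95.

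In the list of lysosome and proton pump genes 7 of 35 tested members rose and 3 fell (median -0.15 and 0.37). Psap, the precursor of the saposins, had 688, 751 and 725 TPM in the P0 libraries and 1242, 1140.2 and 1193 TPM in the P14 libraries, and Atp6v1a, the catalytic subunit of the vacuolar pump, rose from 89.8 ± 1.39 to 126 ± 7.31 TPM. Grn, the precursor of granulins, fell from 46.5 ± 1.38 to 20.5 ± 1.70 TPM, the protease Ctsh from 98.6 ± 7.12 to 53.8 ± 3.43 TPM and the lipase Lipa from 57.1 ± 1.22 to 33.5 ± 2.34 TPM. In cholesterol synthesis 5 of 24 tested members rose and 0 fell. Sc5d, a sterol desaturase, rose from 14.1 ± 0.831 to 20.5 ± 1.99 TPM, but the count was 2 without P0-3 or P14-1 and 3 without P0-1 or P14-2.

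Enzymes that handle oxidants and foreign compounds moved both ways: 12 of 35 tested members rose and 13 fell (median -0.19 and 0.33). The quinone reductase Nqo1 had 172, 179 and 169.5 TPM in the P0 libraries and 40.2, 34.9 and 33.5 TPM in the P14 libraries. The haem oxygenase Hmox1 had 19.5, 36.1 and 22.1 TPM in the P0 libraries and 4.24, 5.05 and 4.41 TPM in the P14 libraries. Both had their P0 libraries well above those of P14. In the other direction, peroxiredoxin Prdx1 rose from 342 ± 7.90 to 428 ± 18.8 TPM, the glutathione transferase Gsta4 from 236 ± 5.66 to 279 ± 12.8 TPM and the epoxide hydrolase Ephx1 from 143 ± 7.41 to 211 ± 6.94 TPM. Cyp1b1 fell from 27.7 ± 1.85 to 6.15 ± 0.705 TPM, and the metallothioneins Mt2 and Mt1 fell from 63.6 ± 0.926 to 15.9 ± 2.99 TPM and from 135 ± 5.92 to 54.9 ± 5.59 TPM. The extracellular dismutase Sod3 rose from 12.9 ± 0.253 to 40.1 ± 3.68 TPM and peroxiredoxin Prdx5 from 295 ± 7.82 to 399.8 ± 19.2 TPM. In iron and metal handling 5 of 23 tested members rose and 8 fell. Ftl1, the ferritin light chain, had 1301, 1215 and 1169 TPM in the P0 libraries and 352, 339 and 393 TPM in the P14 libraries. Slc40a1, the iron exporter ferroportin, fell from 10.7 ± 0.938 to 1.51 ± 0.228 TPM. The transferrin receptor Tfrc rose from 8.93 ± 2.07 to 17.5 ± 3.68 TPM, and the metalloreductases Steap1 and Steap2 rose from 81.9 ± 9.495 to 163 ± 7.49 TPM and from 57.8 ± 5.04 to 153 ± 13.5 TPM.

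Most genes of DNA replication and mitosis fell. Of them 0 of 52 tested members rose and 36 fell, with a median of -1.11 as deposited and -0.75 after scaling; 7 of the 36 were under 1 TPM in every P14 library and met the filter through P0 alone. Mki67, the proliferation marker, had 7.44, 7.17 and 7.45 TPM in the P0 libraries and 1.34, 1.84 and 1.57 TPM in the P14 libraries. Cdk1, the mitotic kinase, had 59.6, 59.0 and 63.3 TPM in the P0 libraries and 13.8, 14.2 and 17.2 TPM in the P14 libraries. Its cyclin Ccnb2 had 6.33, 6.34 and 7.04 TPM in the P0 libraries and 0.969, 1.18 and 0.951 TPM in the P14 libraries. Top2a, the topoisomerase of dividing cells, had 16.0, 13.7 and 13.2 TPM in the P0 libraries and 2.63, 3.69 and 3.32 TPM in the P14 libraries. The ages did not overlap in any of these genes, and as deposited P14 lay below P0 without overlap in 65.4% of all tested genes. Pcna, the replication clamp, fell from 126 ± 1.10 to 67.8 ± 2.35 TPM.

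Promoters of such genes are known for paired CCAAT boxes, bound by the factor NF-Y, and for the cell cycle homology region TTTGAA. On both strands of the 250 upstream bases, CCAAT stood in 30 of 41 promoters of the list (73.2%), against 40.2% of all tested genes with a promoter. TTTGAA stood in 10 of 41 (24.4%, against 12.9%). E2F sites, sought as TTTCCCGC or TTTGGCGC, stood in 12.2% against 2.76%. The stretches (GRCm38.p6) before 3 of the genes just described are printed because their boxes repeat at short distances; capitals mark CCAAT and TTTGAA or their reverse complements ATTGG and TTCAAA.
Cdk1 (chr10:69352939-69353088, minus strand): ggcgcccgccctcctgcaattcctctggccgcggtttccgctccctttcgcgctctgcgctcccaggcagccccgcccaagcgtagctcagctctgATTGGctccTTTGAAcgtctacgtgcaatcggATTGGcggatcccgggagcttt
Ccnb2 (chr9:70421555-70421704, minus strand): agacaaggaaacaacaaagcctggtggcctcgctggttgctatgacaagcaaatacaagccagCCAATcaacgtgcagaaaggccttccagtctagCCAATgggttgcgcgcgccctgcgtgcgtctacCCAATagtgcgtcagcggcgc
Top2a (chr11:99024190-99024339, minus strand): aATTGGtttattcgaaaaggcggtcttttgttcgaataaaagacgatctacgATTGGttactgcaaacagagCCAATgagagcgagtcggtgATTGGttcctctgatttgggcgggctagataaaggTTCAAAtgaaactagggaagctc
Ccnb2 holds CCAAT boxes at 87, 54 and 21 bases before the RefSeq start (position of the box's upstream end). Top2a has 4 boxes, at 149, 98, 78 and 58, and TTTGAA in reverse at 23. In Cdk1 a TTTGAA at 71 lies between reversed boxes at 80 and 48. Among genes that changed at least 2-fold on both scales, CCAAT stood in 39.3% of those that rose and 42.8% of those that fell, near its share in all promoters. TAATCC, the core read by Otx2-type homeodomains, stood in 9.02% of the former and 9.07% of the latter, against 6.33% of all. AAGGTCA, the site of estrogen-related receptors, stood in 6.56% and 3.26%, against 3.59% of all and 7.94% of the oxidative phosphorylation list. TGACGTCA, the cyclic AMP response element, stood in 0% and 2.09%, against 3.02% of all.

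A network of imprinted genes, expressed from 1 parental allele, is known to be turned down as growth slows after birth. In that list 0 of 24 tested members rose and 16 fell (median -1.20 and -0.82). Under 1 TPM in every P14 library were 4 of the 16, which met the filter through P0 alone. Besides H19, Meg3, a maternally expressed non-coding RNA, had 335, 442 and 314 TPM in the P0 libraries and 91.3, 72.3 and 95.1 TPM in the P14 libraries. Peg10, a paternally expressed gene, had 34.7, 33.3 and 34.6 TPM in the P0 libraries and 4.54, 4.30 and 4.16 TPM in the P14 libraries. Grb10, an adaptor that dampens insulin signals, fell from 193 ± 2.39 to 49.1 ± 1.97 TPM, and Cdkn1c, an inhibitor of cyclin-dependent kinases, from 246 ± 5.90 to 128 ± 9.15 TPM. Igf2, the paternally expressed growth factor next to H19, had 1263, 1210.2 and 1319 TPM in the P0 libraries and 1182, 1027 and 1014 TPM in the P14 libraries. It was called lower as deposited (log2 -0.24, adjusted p = 0.0213) and higher after scaling (0.28, adjusted p = 0.0258), so that it is counted as neither. Its difference was 0.00029 under quantile normalization.

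In the axis of insulin-like growth factors and glypicans 5 of 20 tested members rose and 8 fell. Igfbp2, an abundant binding protein, rose from 1968 ± 85.1 to 2405 ± 72.6 TPM, and Igfbp7 from 97.9 ± 15.2 to 166 ± 31.8 TPM. Gpc4 rose from 16.5 ± 0.167 to 30.6 ± 3.77 TPM while Gpc3 fell, as given above. The count of falls in this list was 5 without P0-3. Of the oncofetal RNA-binding and architectural genes, 0 of 11 tested members rose and 9 fell (median -1.12 and -0.83). Of these falls 3, Igf2bp3 among them, were under 1 TPM in every P14 library. They met the filter through P0 alone and could be called only as falls. Igf2bp3, which binds Igf2 RNA, had 13.5, 12.46 and 11.2 TPM in the P0 libraries and 0.370, 0.213 and 0.194 TPM in the P14 libraries. Hmga1, a chromatin architectural protein, had 29.4, 30.5 and 33.1 TPM in the P0 libraries and 6.58, 7.86 and 7.07 TPM in the P14 libraries. For DNA methylation and Polycomb genes 0 of 25 tested members rose and 8 fell, among them Ezh2, the histone methyltransferase (19.3 ± 2.15 to 8.83 ± 0.744 TPM), and Rnf2, a ubiquitin ligase (47.8 ± 3.26 to 22.2 ± 2.99 TPM). Of D cyclins and CDK regulators 0 of 13 tested members rose and 4 fell: Cdk6 (5.92 to 1.28 TPM), Rbl1 (6.15 to 2.52 TPM), Cdk4 (113 to 58.0 TPM) and Cdkn1c. The call of Cdk4 was lost without P0-1, P0-3 or P14-1 (adjusted p = 0.0621 to 0.0716).

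Multiciliated cells switch on Gmnc and Mcidas, multiply centrioles with Deup1 and Ccno, and build axonemes under Foxj1. Among these regulators 0 of 16 tested members rose and 11 fell (median -0.96 and -0.52). Of the 11 falls 2, Mcidas among them, were under 1 TPM in every P14 library. These met the filter through P0 alone and could be called only as falls. Mcidas had 4.40, 3.59 and 3.56 TPM in the P0 libraries and 0.498, 0.541 and 0.753 TPM in the P14 libraries. Ccno had 5.01, 4.26 and 4.81 TPM in the P0 libraries and 0.625, 0.832 and 1.04 TPM in the P14 libraries. Both genes lie in the same locus as Cdc20b. Deup1, a scaffold of the centriole factory, fell from 14.95 ± 0.571 to 3.74 ± 0.585 TPM, and Foxj1 from 104 ± 6.53 to 63.8 ± 3.12 TPM. The scaled difference of Foxj1 was -0.18, and its call was lost without P0-2, P0-3, P14-1 or P14-2 (adjusted p = 0.0831 to 0.107). Gmnc, the initiator, had 88.5, 97.7 and 91.0 TPM in the P0 libraries and 66.5, 59.3 and 57.9 TPM in the P14 libraries; it was lower as deposited (log2 -0.59, adjusted p = 4.39e-04) and at -0.07 after scaling (adjusted p = 0.315).

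The motile axoneme itself was affected in part, as 1 of 73 tested members rose and 27 fell (median -0.65 and -0.18). Among the 27 falls, 3 were under 1 TPM in every P14 library and met the filter through P0 alone. Ccdc40, a ruler of the axonemal repeat, had 34.8, 31.9 and 35.5 TPM in the P0 libraries and 4.97, 5.81 and 5.35 TPM in the P14 libraries. The tektin Tekt2 had 19.5, 21.6 and 17.96 TPM in the P0 libraries and 4.43, 2.54 and 3.16 TPM in the P14 libraries. Cfap43 fell from 90.7 ± 6.89 to 32.2 ± 1.36 TPM, and Cfap126 from 332 ± 14.8 to 155 ± 17.4 TPM, so that abundant axonemal transcripts were still present at P14. The member that rose was Cfap74 (21.7 ± 2.05 to 26.7 ± 1.73 TPM), a call lost without P0-3, P14-1 or P14-3 (adjusted p = 0.0601 to 0.0746). Intraflagellar transport and BBSome genes, needed for all cilia, had few calls: 0 of 36 tested members rose and 5 fell (median -0.37 and 0.12). Ift46 fell from 208 ± 13.7 to 94.0 ± 3.88 TPM, Arl6 from 117 ± 4.84 to 59.8 ± 0.473 TPM, Wdr19 from 28.2 ± 0.743 to 15.1 ± 1.34 TPM, Ift140 from 16.0 ± 0.752 to 8.41 ± 1.36 TPM and Ift81 from 65.0 ± 5.93 to 37.0 ± 2.33 TPM. The calls of Ift140 and Ift81 were lost without P0-1, P0-2, P0-3 or P14-2 (adjusted p = 0.0544 to 0.0639) and without P0-2 (adjusted p = 0.0511), and the count was 3 without P0-2.

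Claudins set the permeability of the barrier between blood and cerebrospinal fluid. Of the tight junction genes 3 of 24 tested members rose and 8 fell (median -0.51 and -0.02). Cldn2, which forms a pore for sodium and water, rose from 219 ± 9.53 to 278 ± 12.47 TPM, as did Cgnl1 (114 to 153 TPM) and Marveld3 (3.85 to 6.99 TPM). Cldn1, a sealing claudin, had 468, 438 and 433 TPM in the P0 libraries and 239, 227 and 219 TPM in the P14 libraries. Occludin (Ocln) had 166, 189 and 181 TPM in the P0 libraries and 91.7, 84.8 and 89.2 TPM in the P14 libraries. The P14 libraries of both lay well below those of P0. Scaffold protein Tjp1 fell from 47.4 ± 2.81 to 24.2 ± 1.77 TPM. The endothelial claudin Cldn5 fell from 8.57 ± 0.258 to 1.95 ± 0.447 TPM, and Cldn11, also a meningeal gene, from 44.7 ± 3.28 to 14.9 ± 2.71 TPM. Of cadherins and catenins 0 of 18 tested members rose and 10 fell: examples are Cdh5 of endothelium, Cdh11 of mesenchyme (54.8 ± 7.44 to 21.6 ± 3.06 TPM), the epithelial adhesion molecule Epcam (4.19 ± 0.463 to 1.25 ± 0.0998 TPM) and p120 catenin Ctnnd1 (100.0 ± 3.57 to 50.2 ± 1.93 TPM).

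The epithelium is a source of sonic hedgehog, which signals to progenitors and to the vascular stroma. Of Hedgehog pathway genes 0 of 15 tested members rose and 8 fell. The ligand Shh had 5.54, 5.92 and 6.14 TPM in the P0 libraries and 0.183, 0.0783 and 0.122 TPM in the P14 libraries. Gli1, a transcription factor of the pathway, had 1.33, 2.85 and 2.01 TPM in the P0 libraries and 0.0898, 0.107 and 0.193 TPM in the P14 libraries. Hhip, a feedback inhibitor, had 7.01, 8.78 and 5.61 TPM in the P0 libraries and 0.408, 0.292 and 0.217 TPM in the P14 libraries. Of the 8 falls, 6, among them these genes, Gli2 and Gli3, were under 1 TPM in every P14 library: they met the filter through the P0 libraries alone and could be called only as falls, so that their count supports nothing about the pathway. The falls above 1 TPM at both ages were the co-receptors Cdon (24.6 ± 1.92 to 12.9 ± 0.652 TPM) and Gas1 (13.3 ± 0.588 to 5.58 ± 0.451 TPM). The receptors Ptch1 and Smo were not called on both scales: Ptch1 had 40.8, 49.1 and 49.4 TPM in the P0 libraries and 30.8, 23.8 and 23.2 TPM in the P14 libraries and Smo 38.1, 40.0 and 42.0 TPM in the P0 libraries and 28.5, 26.6 and 28.8 TPM in the P14 libraries. The effectors Gli2 and Gli3 fell from 3.85 ± 0.199 to 0.454 ± 0.102 TPM and from 3.89 ± 0.0234 to 0.628 ± 0.148 TPM. Of Notch pathway genes 0 of 19 tested members rose and 7 fell, and the count of falls was 4 without P0-1. Jag1, a ligand, fell from 7.14 ± 1.15 to 2.41 ± 0.189 TPM.

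Of BMP and TGF-beta genes 2 of 34 tested members rose and 16 fell (median -0.73 and -0.27). The ligand Tgfb2 had 23.9, 23.5 and 30.0 TPM in the P0 libraries and 109.8, 95.6 and 89.8 TPM in the P14 libraries and rose, as did Itgb8, an integrin chain known to activate latent TGF-beta, which had 17.6, 19.2 and 18.8 TPM in the P0 libraries and 59.0, 52.8 and 55.5 TPM in the P14 libraries. Bmp2 was the other member that rose (0.475 ± 0.1002 to 1.83 ± 0.334 TPM). It was under 1 TPM in every P0 library, met the filter through P14 alone and could be called only as a rise. The BMP antagonist Nog fell from 6.58 ± 0.265 to 1.16 ± 0.162 TPM. In the Wnt pathway 3 of 29 tested members rose and 16 fell (median -0.80 and -0.36). Under 1 TPM in every P14 library were 4 of the 16, which met the filter through P0 alone. Wnt5a, a ligand of the non-canonical branch, had 53.7, 56.1 and 64.4 TPM in the P0 libraries and 18.4, 16.8 and 16.6 TPM in the P14 libraries. The antagonist Sfrp2 fell from 6.14 ± 0.569 to 0.789 ± 0.204 TPM, Tcf7, a nuclear effector, from 7.19 ± 0.580 to 1.79 ± 0.224 TPM, and the target Axin2 from 24.9 ± 0.102 to 13.6 ± 0.473 TPM. Those that rose were the receptor Fzd4 (37.7 ± 1.58 to 70.1 ± 5.36 TPM), Rnf43 (3.20 to 4.88 TPM) and Sostdc1 (718 to 834 TPM), an abundant antagonist of the epithelium.

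Of VEGF and angiopoietin genes 0 of 16 tested members rose and 9 fell (median -1.11 and -0.66). Angptl4 had 9.86, 15.8 and 11.5 TPM in the P0 libraries and 1.90, 1.67 and 2.73 TPM in the P14 libraries, the placental growth factor Pgf fell from 10.2 ± 0.567 to 2.15 ± 0.824 TPM, and the VEGF receptor Kdr, carried by endothelial cells, from 43.2 ± 3.75 to 21.4 ± 2.10 TPM. Vegfa, the main ligand, was not called on both scales, at 145, 158 and 140.4 TPM in the P0 libraries and 112, 97.2 and 111 TPM in the P14 libraries. Transcription factors that mark the roof plate and the position along the brain mostly fell: 1 of 24 tested members rose and 17 fell (median -0.89 and -0.42). Under 1 TPM in every P14 library were 3 of the 17, which met the filter through P0 alone. Zic4 had 67.2, 73.4 and 66.2 TPM in the P0 libraries and 26.5, 27.8 and 27.2 TPM in the P14 libraries. The hindbrain factors Hoxb3 and Hoxa2 fell from 3.78 ± 0.681 to 0.676 ± 0.212 TPM and from 5.24 ± 0.0862 to 1.75 ± 0.0401 TPM, and Meis1 from 17.6 ± 1.20 to 5.54 ± 0.132 TPM. Msx1 was the member that rose (171 ± 5.72 to 189 ± 9.32 TPM), a call lost without P0-1, P0-2, P0-3, P14-1 or P14-3 (adjusted p = 0.078 to 0.138). Hox transcripts are known from hindbrain choroid plexus, and the labels do not say which ventricles were sampled at either age.

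Matrix genes fell broadly. Of collagen chains 0 of 28 tested members rose and 22 fell (median -1.25 and -0.78). Col4a1, a chain of basement membrane collagen, had 94.0, 82.8 and 70.4 TPM in the P0 libraries and 25.9, 16.7 and 16.2 TPM in the P14 libraries. Col1a1 of fibrillar collagen had 40.5, 30.2 and 37.4 TPM in the P0 libraries and 11.7, 7.29 and 8.995 TPM in the P14 libraries. The highest P14 library of each lay well below the lowest P0 library. Of collagen processing and matricellular genes 2 of 39 tested members rose and 17 fell. Under 1 TPM in every P14 library were 4 of the 17, which met the filter through P0 alone. Fibronectin (Fn1) had 72.7, 61.5 and 74.2 TPM in the P0 libraries and 6.36, 8.90 and 16.3 TPM in the P14 libraries, with its highest P14 value in P14-3. The proteoglycan Bgn fell from 181 ± 6.17 to 52.6 ± 2.42 TPM. Pcolce (71.1 ± 1.72 to 105 ± 5.56 TPM) and Fmod (20.9 ± 1.93 to 24.8 ± 0.638 TPM) rose, and the call of Fmod was lost without P0-1, P0-2, P14-1 or P14-3 (adjusted p = 0.0673 to 0.0825). For laminins and integrins 1 of 26 tested members rose and 9 fell: Lama4, a laminin chain of vessels, fell from 11.2 ± 0.327 to 2.55 ± 0.384 TPM, and Agrn, agrin, from 29.3 ± 2.83 to 7.08 ± 0.802 TPM. Among the 9 falls, 2 were under 1 TPM in every P14 library and met the filter through P0 alone. Itgb8 alone rose, and the count of rises was 3 without P14-1.

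Markers of the cells in the core fell with the matrix. In this bulk tissue fewer cells of a type and less RNA per cell cannot be told apart, and the part that cell makeup has in any result was not tested. Of endothelial markers 0 of 22 tested members rose and 18 fell (median -1.25 and -0.84), and their summed level was 394 to 534 TPM at P0 and 144 to 199 TPM at P14. Cdh5, the endothelial cadherin, had 37.7, 41.1 and 35.2 TPM in the P0 libraries and 7.51, 5.58 and 6.25 TPM in the P14 libraries. Pecam1 had 31.6, 35.4 and 22.3 TPM in the P0 libraries and 13.96, 10.8 and 12.1 TPM in the P14 libraries. Plvap, the diaphragm protein of fenestrated vessels, fell from 19.9 ± 3.72 to 8.40 ± 2.74 TPM, a call lost without P0-1, P0-2, P14-2 or P14-3 (adjusted p = 0.083 to 0.0923). Of fibroblast and meningeal markers 0 of 19 tested members rose and 12 fell, with sums of 1587 to 1780.0 TPM at P0 and 1066 to 1579 TPM at P14. Pdgfra, a fibroblast receptor, had 126, 124 and 124 TPM in the P0 libraries and 34.5, 31.0 and 30.8 TPM in the P14 libraries. The meningeal genes Slc6a13 and Aldh1a2 were higher in P14-3 than in the other P14 libraries. Of mural cell markers 2 of 14 tested members rose and 6 fell (154 to 176 TPM at P0 and 109 to 141 TPM at P14). The pericyte receptor Pdgfrb fell from 21.9 ± 1.84 to 7.69 ± 2.10 TPM, whereas the smooth muscle genes Tagln and Acta2 rose, from 1.71 ± 0.594 to 4.88 ± 1.84 TPM and from 2.94 ± 0.658 to 5.47 ± 0.458 TPM. Of macrophage markers 0 of 23 tested members rose and 15 fell (263 to 322 TPM at P0 and 111 to 130.5 TPM at P14). Under 1 TPM in every P14 library were 3 of the 15, which met the filter through P0 alone. C1qa, a complement component made by macrophages, had 24.8, 21.6 and 21.0 TPM in the P0 libraries and 10.04, 10.9 and 10.7 TPM in the P14 libraries, Csf1r, their growth factor receptor, fell from 15.5 ± 1.28 to 7.01 ± 0.330 TPM, and Mrc1, the mannose receptor, from 15.8 ± 3.52 to 5.92 ± 0.877 TPM. None of the defining markers named in this paragraph was at 0 in any library.

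Most erythroid genes fell. Of erythroid genes 2 of 12 tested members rose and 7 fell, with sums of 6678 to 13530.0 TPM at P0 and 815 to 944 TPM at P14, and the P0 libraries differed among themselves. Among the 7 falls, 2 were under 1 TPM in every P14 library and met the filter through P0 alone. Alas2, the erythroid enzyme of haem synthesis, fell from 23.02 ± 8.26 to 2.26 ± 0.351 TPM. Tfrc and Sptb were the members that rose, and the call of Sptb was lost without P0-1, P0-2, P0-3, P14-1 or P14-3 (adjusted p = 0.0609 to 0.123). Of neutrophil, lymphocyte and mast cell markers 0 of 8 tested members rose and 2 fell, namely Retnlg and Kit. S100a8 and S100a9, abundant in neutrophils, were not called: S100a8 had 36.5, 50.8 and 41.9 TPM in the P0 libraries and 1.55, 2.48 and 28.7 TPM in the P14 libraries. S100a9 had 47.9, 48.6 and 44.2 TPM in the P0 libraries and 2.00, 3.34 and 39.2 TPM in the P14 libraries. In P14-3 both stood far above the other P14 libraries. Without P14-3, 5 members of this list fell, and without P0-1 4 did. Sums over the list were 152 to 176 TPM at P0 and 21.6 to 98.8 TPM at P14. Of MHC class II and dendritic cell genes 1 of 6 tested members rose and 2 fell: H2-DMb1 rose from 5.91 ± 0.319 to 8.80 ± 1.06 TPM, H2-Ab1 fell from 1.62 ± 0.571 to 0.427 ± 0.192 TPM and Zbtb46 from 3.92 ± 0.554 to 1.71 ± 0.195 TPM. The fall of H2-Ab1 was lost without P0-2, P0-3, P14-1 or P14-2 (adjusted p = 0.0623 to 0.0803). H2-Ab1 was also under 1 TPM in every P14 library and met the filter through P0 alone.

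Most interferon response genes fell. Of them 1 of 28 tested members rose and 20 fell (median -1.26 and -0.93). Among the 20 falls, 2 were under 1 TPM in every P14 library and met the filter through P0 alone. Isg15, a ubiquitin-like modifier, had 22.3, 14.4 and 10.4 TPM in the P0 libraries and 2.02, 1.504 and 1.73 TPM in the P14 libraries. Rtp4 had 35.8, 29.2 and 27.4 TPM in the P0 libraries and 10.1, 4.37 and 5.63 TPM in the P14 libraries. Oasl2 had 18.9, 13.7 and 12.52 TPM in the P0 libraries and 3.55, 2.09 and 2.82 TPM in the P14 libraries. Irf7, the transcription factor that amplifies the response, fell from 9.85 ± 1.97 to 2.62 ± 0.787 TPM. Ifi27 was the exception: it had 46.1, 51.5 and 55.6 TPM in the P0 libraries and 239.6, 182 and 235 TPM in the P14 libraries, and its difference was 2.07 as deposited (SE 0.12, adjusted p = 4.11e-05) and 2.58 after scaling (SE 0.11, adjusted p = 1.84e-05). Of MHC class I genes 1 of 16 tested members rose and 5 fell. B2m, the invariant chain, fell from 359 ± 9.90 to 212 ± 5.32 TPM, and H2-Q4 from 14.6 ± 0.848 to 4.38 ± 0.197 TPM. Calr, counted in this list as in that of the ER, was the member that rose. In the complement list 3 of 16 tested members rose and 6 fell, of which 2 were under 1 TPM in every P14 library. The inhibitors Cd59a and Cd55, which guard cell surfaces, rose: Cd59a had 42.1, 41.9 and 39.7 TPM in the P0 libraries and 118, 111 and 109.6 TPM in the P14 libraries. Cd55 had 60.5, 54.5 and 59.2 TPM in the P0 libraries and 111, 108 and 111 TPM in the P14 libraries. C1qa, C1qb and C1qc were among those that fell, as was C2 (5.74 ± 1.10 to 1.83 ± 0.738 TPM), whose call was lost without P0-1, P0-3 or P14-1 (adjusted p = 0.0526 to 0.0562).

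The plexus borders brain tissue, so markers of neurons and glia were measured as well. Of neuron markers 3 of 11 tested members rose and 0 fell: Nefh, given above, Snap25 and Syt1. Nefh was under 1 TPM in every P0 library, met the filter through P14 alone and could be called only as a rise. Snap25, a synaptic fusion protein, had 2.23, 0.818 and 1.10 TPM in the P0 libraries and 3.97, 8.09 and 3.34 TPM in the P14 libraries. The vesicle sensor Syt1 had 10.6, 7.77 and 9.70 TPM in the P0 libraries and 13.3, 13.2 and 10.9 TPM in the P14 libraries. The call of Syt1 was lost without P0-2, P0-3, P14-1 or P14-2 (adjusted p = 0.0599 to 0.103). Sums over the neuron list were 47.5 to 76.8 TPM at P0 and 77.7 to 102 TPM at P14. Of oligodendrocyte and Schwann cell markers 3 of 10 tested members rose and 3 fell, with sums of 218 to 233 TPM at P0 and 115 to 146 TPM at P14. The falls were Pdgfra, Cldn11 and Cspg5. Pdgfra and Cldn11 are also counted as fibroblast and meningeal markers, so that the lower sum at P14 does not describe oligodendrocytes alone. The call of Cspg5 was lost without P0-1, P0-3, P14-1, P14-2 or P14-3 (adjusted p = 0.0579 to 0.107). Myelin genes were among the rises: Mobp had 0.111, 0.0877 and 0.0680 TPM in the P0 libraries and 3.81, 6.12 and 2.39 TPM in the P14 libraries. Mobp thus met the filter through P14 alone and could be called only as a rise. Mbp had 8.54, 9.09 and 9.02 TPM in the P0 libraries and 24.03, 40.5 and 20.1 TPM in the P14 libraries. P14-2 held the highest P14 value of Snap25, Mobp and Mbp, whereas Nefh was highest in P14-1. Olig1, Olig2 and Sox10, the transcription factors of the lineage, did not reach the filter. The part of adjacent brain in these rises was not tested.

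Of astrocyte, ependymal and progenitor markers 3 of 18 tested members rose and 6 fell (median -0.63 and -0.12; sums 1614 to 1778 TPM at P0 and 949 to 1016 TPM at P14). Vim, the vimentin of immature and mesenchymal cells, had 335, 342 and 350.0 TPM in the P0 libraries and 92.9, 81.5 and 87.6 TPM in the P14 libraries. Gja1, connexin 43, had 84.5, 77.4 and 82.1 TPM in the P0 libraries and 8.08, 12.8 and 15.1 TPM in the P14 libraries. The progenitor filament Nes fell from 5.57 ± 0.925 to 1.87 ± 0.0615 TPM. Tmem212, a gene of ependymal cells, was listed at 0 in all P0 libraries and had 1.09, 2.30 and 3.03 TPM at P14. It met the filter through P14 alone and could be called only as a rise. Hopx, a homeodomain-only protein, rose from 43.1 ± 5.03 to 106 ± 5.80 TPM, and Aldh1l1, a folate enzyme used as an astrocyte marker, from 17.4 ± 1.70 to 31.7 ± 2.10 TPM.

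Of the immediate early genes, which respond within minutes to stimuli, 0 of 19 tested members rose and 7 fell. Klf4 fell from 5.62 ± 1.17 to 1.96 ± 0.318 TPM, Jun from 7.53 ± 0.868 to 3.15 ± 0.524 TPM and Nr4a3 from 5.69 ± 0.885 to 1.82 ± 0.123 TPM. Of circadian clock genes 3 of 19 tested members rose and 2 fell: Bhlhe40 had 7.85, 6.05 and 5.59 TPM in the P0 libraries and 17.97, 15.04 and 17.4 TPM in the P14 libraries, Dbp rose from 18.9 ± 2.23 to 25.1 ± 0.165 TPM and Clock from 21.9 ± 1.12 to 27.3 ± 1.73 TPM, while Nfil3 fell from 22.1 ± 1.08 to 11.7 ± 0.659 TPM and Arntl from 13.7 ± 1.26 to 7.39 ± 0.346 TPM. The time of day of dissection is not given in the sources used here. In the list of filaments 2 of 18 tested members rose (11.1%) and 5 fell (27.8%), not far from the 6.75% and 21.8% of all tested genes. Nefh and Nav3 rose, and Lmnb1, the lamin B1 of growing nuclei, fell from 50.7 ± 6.55 to 9.04 ± 0.615 TPM. Nefh met the filter through P14 alone.

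**Figure D4:**
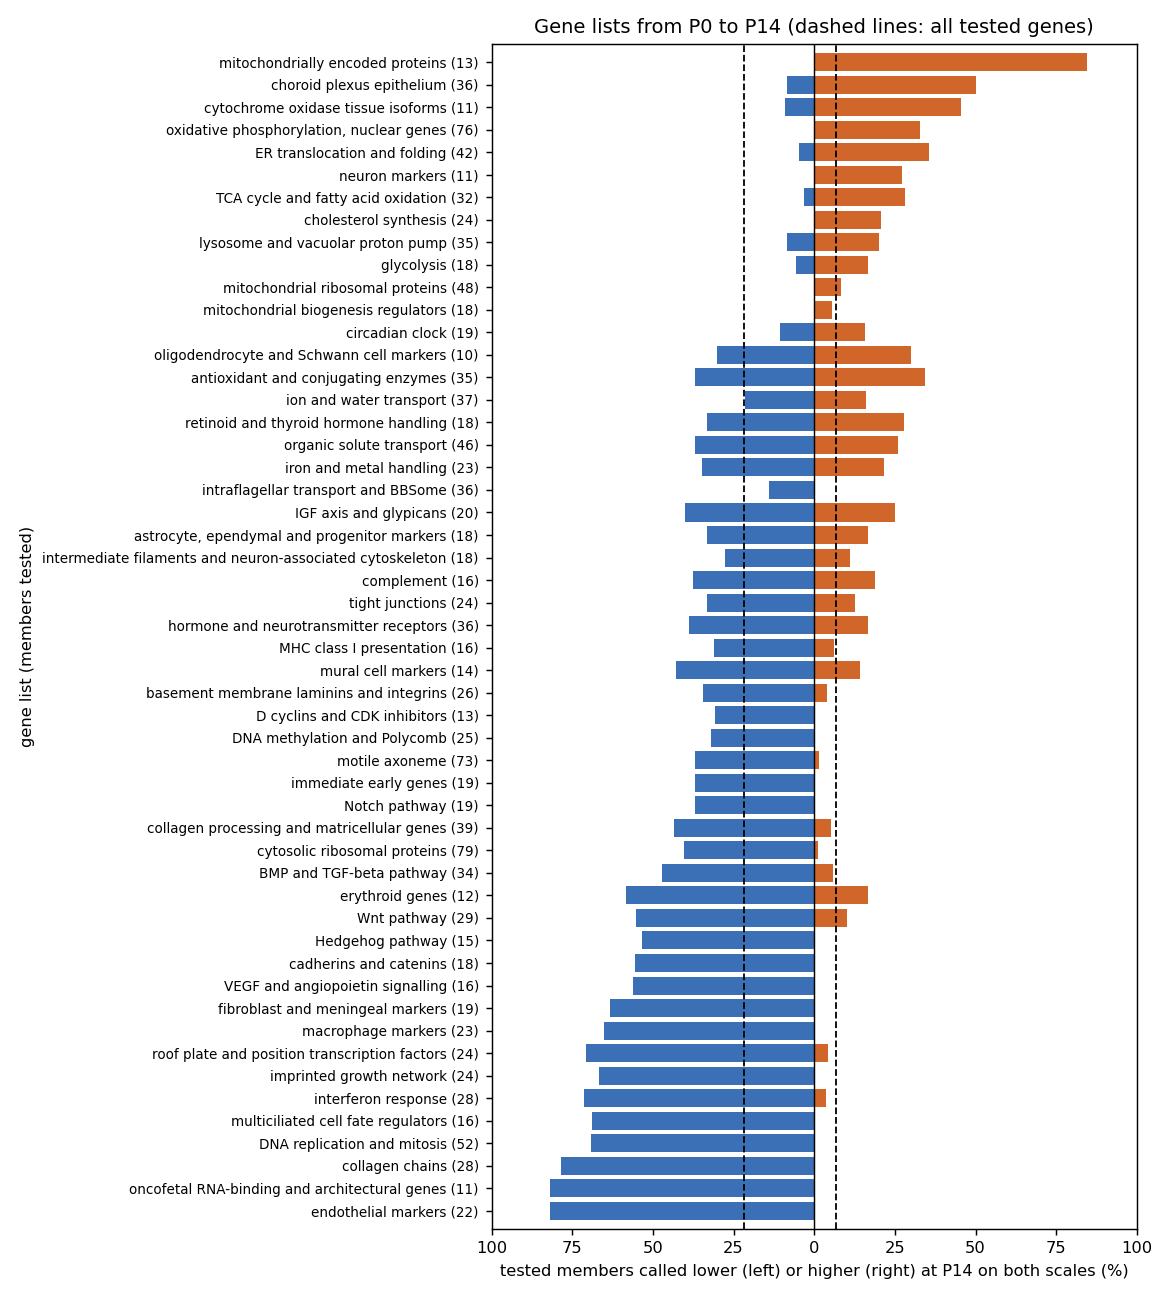
Share of the tested members of 52 gene lists (y axis, tested members in parentheses, lists with at least 10) called lower (left, blue) or higher (right, orange) at P14 on both scales (x axis, %); dashed lines mark all tested genes, at 21.8% and 6.75%. Mitochondrially encoded proteins (84.6%) and epithelial markers (18 of 36) reach farthest to the right, and endothelial markers and oncofetal genes (81.8% each) farthest to the left. Of the 9 oncofetal falls, 3 were under 1 TPM in every P14 library and met the filter through P0 alone.

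Levels at the other ages place P14 on a longer course. They are descriptions with no test, and the A6m libraries also stood apart in a sex-linked transcript: the mean of Y-linked Ddx3y was 0.274 TPM there. Of the 15 largest rises, 11 had a higher mean at A6m than at P14, and 4 a lower one. Cox8b went on to 184 TPM, Prlr to 536 TPM and Maob to 231 TPM. Nefh instead dropped back to 2.42 TPM and Nav3 to 22.2 TPM, so that both had their highest level of the 4 ages at P14. All 15 of the largest falls had a lower mean at A6m than at P14. Some of these had been lower before birth than at P0: Penk averaged 229 TPM and Klk4 6.84 TPM at E12.5, against 659 TPM and 94.1 TPM at P0. H19 and Cdc20b started highest at E12.5, at 1327 TPM and 294 TPM.

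**Figure D5:**
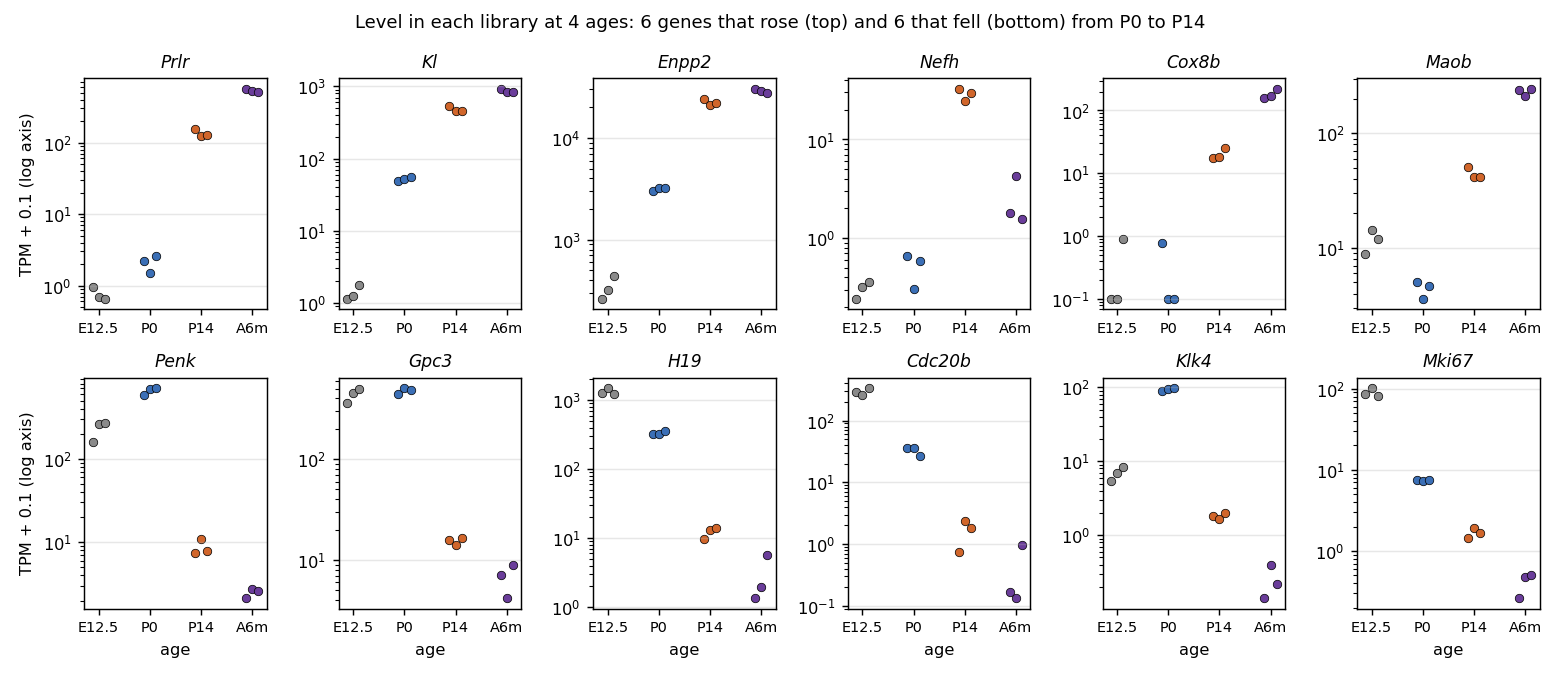
TPM plus 0.1 (y axis, log scale) of 6 genes that rose (top) and 6 that fell (bottom) between P0 and P14, in 3 libraries at each of 4 ages (x axis). Prlr, Kl, Cox8b and Maob continue upwards to A6m, Nefh peaks at P14, and Penk and Klk4 peak at P0.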

How the data were processed

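Total RNA of dissected choroid plexus was made into mRNA libraries and sequenced as 100 bp paired ends, per the labels' protocols. The authors deposited 1 table of TPM per gene symbol and library; kallisto and GRCm38 are named in the submitters' processing notes, with no version. Read depth cannot be had from TPM, so no counting error is given. Columns were matched to samples by name; 7 further columns of the table were not used here. A few genes that met the naming rule are not reported here.

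Genes with at least 1 TPM in at least 3 of the 6 libraries were tested with limma 3.58.1 (lmFit and eBayes with trend, R 4.3.3) on log2(TPM + 1), which understates the change of low genes. The fit was made on the deposited values and after median-of-ratios scaling over 20625 genes above 0 in all 6 libraries. p-values were Benjamini-Hochberg adjusted over the 15401 genes, at a threshold of 0.05, and measure the spread between 3 specimens per age. The code was tested on simulated data. Coordinates come from the GRCm38 annotation; promoters come from RefSeq.

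Named genes are the 15 largest rises and 15 largest falls as deposited among genes called on both scales, without overlap of the ages and with a mean of at least 20 TPM at the higher age (unnamed gene models, pseudogenes, mitochondrially encoded and small-RNA genes left out). To these come up to 4 called genes per list with a mean of at least 2 TPM, and 17 genes named in any case. The comparison, the 54 gene lists and these rules were chosen with earlier results of these data known. Other genes named from a list, the ER stress response element, TTTGAA and the printed stretches were chosen after their values were seen. Alternatives covered the pseudocount, the filter, other scalings, quantile normalization, all 12 libraries in 1 fit, eBayes without trend, a replicate block and leaving out each library.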

Additional observations from a re-analysis of the deposited data

How the results depend on the processing

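The scale had the most effect. As deposited, 1039 genes were higher and 9539 lower; scaling made these 4178 and 3365, quantile normalization 3553 and 3491, and rescaling without the 10 most abundant genes or without mitochondrially encoded genes raised the higher count to 2088 and 1760. With a mean of at least 5 TPM required, fewer genes were tested, and 2058 were lower after scaling and 2058 on both scales. The higher genes were then 3716 after scaling and 812 on both scales. After scaling and on both scales the lower count thus shrank more than the higher one, with genes under that mean not tested. As deposited 7072 were lower and 813 higher. Leaving out 1 library gave 861 to 1024 higher and 2711 to 2903 lower genes on both scales, 861 to 1024 and 8580 to 9015 as deposited, and 3604 to 3709 and 2711 to 2903 after scaling. Replicate numbers were not taken as pairs: same-numbered libraries correlated in their deviations at -0.02, -0.07 and -0.09 on either scale, and with the replicate block 897 genes were higher and 2835 lower on both scales (898 and 8798 as deposited, 3658 and 2835 after scaling). Folr1 as deposited turned to 0.17 under quantile normalization, 0.18 without the 10 most abundant genes and 0.13 without mitochondrially encoded genes, and Igf2 as deposited to 0.00029 and 0.0052 under the first 2 of these. Of 623 list members called on both scales, 503 stayed called without any 1 library. Quantile normalization moved 50 of 108 list counts by over 1.5 times and the block 9. The unknown depth limits low genes most.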

Other observations

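Rps27 and Rps27rt, near-identical copies of 1 ribosomal protein gene, exchanged levels between libraries of the same age. Rps27 had 2117, 2105 and 8.99 TPM in the P0 libraries and 5.94, 3.07 and 1249.9 TPM in the P14 libraries. Rps27rt had 10.8, 9.27 and 1766 TPM at P0 and 1001, 1008 and 4.84 TPM at P14. Their sum was 2128, 2115 and 1775 TPM at P0 and 1006, 1011 and 1255 TPM at P14, so that it did not overlap between the ages whereas each gene did. The assignment of reads to either copy is uncertain. Over all tested genes, 29 had at least 1 P0 library 20-fold or more apart from another on TPM + 1 and 15 had such P14 libraries. Besides this pair, Gm10985 was the only gene split in this way at both ages.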
